A study of Drosophila sechellia x Drosophila simulans with 8 samples.

Results

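The genes described here were the X-linked genes of the fruit fly genome used for the deposited files, that is, every gene whose chromosome was given as X in the tables of allele reads. They numbered 2158 of 14176 genes. Of these, 308 had a level of 0 in all 8 libraries, 646 were above 0 with a mean TPM under 1 (TPM, the length-scaled share of transcripts), and 1204, or 55.8%, reached a mean of at least 1 TPM and were tested. Among the 11741 genes of the autosomal arms 2L, 2R, 3L and 3R, 5944 reached that level (50.6%). Only 82 of the X-linked genes carried a gene symbol, and 52 of those were tested. The rest had GD numbers, which the files do not pair with gene names.

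RNA was sequenced from oenocytes and fat body of adult F1 hybrids of D. sechellia and D. simulans, 10 days old, with 2 libraries for each sex and tissue. The tissues came from the dorsal abdomen, and collection was spread evenly over the day and night. The labels give neither the species of the mother nor the number of flies behind a library. The replicates are not said to come from separate collections of flies, so the p-values measure the spread between these libraries, which may be technical.

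Fruit fly females carry a pair of X chromosomes and males carry a single X beside a Y. In D. melanogaster the MSL complex, built of proteins and the roX RNAs, coats the male X and raises transcription from it, a process called dosage compensation. The RNA-binding protein Sxl, made in its full form in females, switches on female development and blocks the translation of msl-2, which keeps the complex off the female X. Oenocytes make the cuticular hydrocarbons that coat the fly and serve as mating signals, and the fat body stores nutrients, makes yolk proteins in females and mounts much of the immune response.

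Library size ranged from 10732070 to 34474092 estimated counts and from 2275755 to 4642417 aligned reads. The replicates of male oenocytes were barely further apart than random sampling of reads gives, with a chi-square per degree of freedom of 1.08 over genes with a single transcript, against 2.95 to 5.57 in the other groups. Over all transcripts the male oenocyte value was 7.55, and for aligned reads per gene 7.71, also the lowest of the 4 groups but well above 1. The male oenocyte libraries were averaged and counted as 1 sample, which left 7 samples, so each test of sex in oenocytes has 1 male sample, whose spread is taken to be that of the other 3 groups. TPM were divided by a factor per library, between 0.730 and 1.25, that brought the median autosomal gene to the same level, and the result is called scaled TPM below. The oenocyte desaturase DesatF stood at 2724.65 and 2544.22 TPM in the female oenocyte libraries and at 30.4 and 25.7 TPM in the female fat body libraries. In males it stood at 145 and 143 TPM in oenocytes and at 4.3 and 4.0 TPM in fat body. Desat1, the other oenocyte marker found, was lower in oenocytes than in fat body, at 6648 and 6242 against 9292 and 8822 TPM in females and at 5220 and 5214 against 12443.5 and 11116.5 TPM in males. The fat body marker Obp99a was higher in fat body, at 5051 and 4754 against 720 and 586 TPM in females and at 252 and 234 against 16.3 and 16.8 TPM in males. Lsp1gamma, also listed for fat body, was at 0 in every library except male fat body library 1, at 0.09 TPM. The accessory gland genes Acp70A, Acp26Aa and Acp36DE were listed at 0 in every library. The summed TPM of 4 germ line markers did not pass 0.38 except in male fat body library 2. Mst84Da alone was at 4.9 TPM there, and at 0 in every other library. The scavenger receptor crq, the 1 haemocyte marker matched, was at 82.5 and 73.4 scaled TPM in male fat body, at 53.7 and 51.3 in female fat body and at 29.6 to 33.9 in oenocytes. Its part in the fat body results was not tested. Of the genes listed for dosage compensation, 0 of 8 were found by symbol, so msl-2, the other complex proteins and the roX RNAs are not described.

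The first question was whether X-linked genes as a whole were read at the same level in both sexes, relative to the autosomes. The median tested X gene was close to the median autosomal gene in every library, and slightly above it everywhere but in male oenocytes. The ratio of the X median to the autosomal median was 1.07 and 1.05 in the female oenocyte libraries and 0.933 and 0.960 in the male ones. The fat body ratios were 1.07 and 1.05 in females and 1.01 and 1.04 in males. Male X-linked genes, present in a single copy, were thus between 0.933 and 1.04 times the autosomal median in all 4 male libraries, and the sexes overlapped in neither tissue.

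A per-gene measure gave the same order. For each library, the level of each gene was taken relative to its own mean over samples, and the median over autosomal genes was subtracted from the median over X genes, all as log2(scaled TPM + 1). This index was 0.049 and 0.025 in the female oenocyte libraries and -0.116 and -0.122 in the male ones. The fat body values were 0.044 and 0.028 in females and -0.005 and -0.042 in males. With the male oenocyte libraries averaged into 1 sample before the index was taken, female X-linked genes stood above male ones by 0.17 in oenocytes, a 1.13-fold difference, and by 0.059 in fat body, a 1.04-fold difference. With all 8 libraries kept separate, these were 0.15 and 0.069. The pooled SD of the index between replicates was 0.019. Exact two-sided permutation tests gave p = 0.333 in each tissue, the smallest value that so few samples allow. An exact permutation of sex within both tissues together gave a mean difference of 0.115 and p = 0.0556, again the smallest possible with 18 arrangements. The fat body difference was the less settled of the pair: it was 0.080 without female fat body library 2, 0.089 without male fat body library 1, and 0.0016 when aligned reads per gene were used, while the oenocyte difference became 0.27 with aligned reads. Without the filter on low TPM the differences were 0.030 in oenocytes and 0.011 in fat body. In whole tissue, fewer cells of a type and less RNA per cell cannot be told apart.

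**Figure D1:**
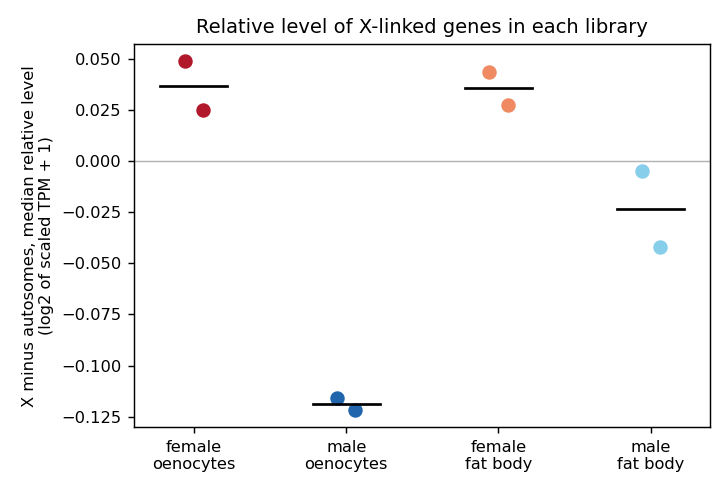
Median relative level of X genes minus that of autosomal genes in each library, as log2(scaled TPM + 1), with 2 libraries per group as points and the group mean as a bar. Female libraries lie between 0.025 and 0.049, and male oenocyte libraries at -0.116 and -0.122 lie furthest below 0.

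The sex difference of the X in oenocytes was a shift of many genes rather than of a few. In oenocytes the median X gene was higher in females by 0.16 on the log2 scale, with quartiles of -0.08 and 0.39, and 66.8% of X genes were above 0. The median autosomal gene stood at 0.03 with 54.0% above 0, and the 4 autosomal arms had medians between 0.02 and 0.03. In fat body the X median was 0.03 with 52.5% above 0, and the autosomal median was -0.04 with 44.6% above 0. The X quartiles there were -0.27 and 0.33 beside autosomal ones of -0.29 and 0.21, so the lower quartiles hardly differed. More X than autosomal genes lay above 0.5 in fat body (15.8% and 10.4%), and also below -0.5 (13.5% and 12.0%). When genes were split into 4 classes of equal numbers of X genes by mean TPM, the X median exceeded the autosomal median in each class. In oenocytes the excess was 0.09, 0.12, 0.17 and 0.13 from the lowest to the highest class, and in fat body 0.03, 0.07, 0.08 and 0.11. The spread of single X genes in oenocytes was also wider, with autosomal quartiles of -0.15 and 0.20 beside -0.08 and 0.39. Above 0.5 were 17.4% of X genes and 8.53% of autosomal genes, a share that also rises with the median. Below -0.5 were 6.98% and 5.22%.

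**Figure D2:**
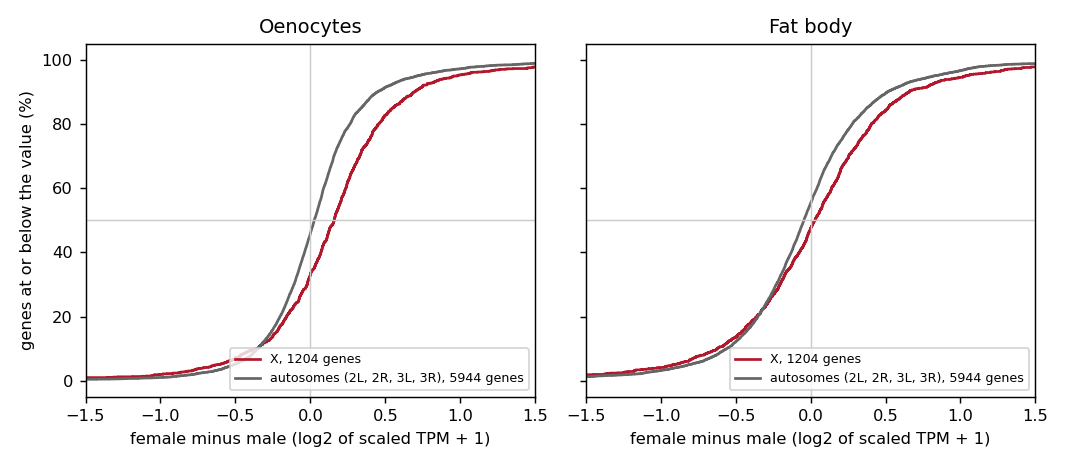
Cumulative share of genes, in percent, against their female minus male difference in log2(scaled TPM + 1), for 1204 X genes and 5944 autosomal genes in each tissue. The X curve lies to the right of the autosomal curve at the median in both panels, at 0.16 against 0.03 in oenocytes and at 0.03 against -0.04 in fat body.

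In fat body, X-linked genes took very different shares of all transcripts in the sexes, and that difference came with very few genes. In oenocytes the shares were closer. They held 39.7% and 40.8% of TPM in female oenocytes, 36.3% in both male oenocyte libraries, 40.5% and 40.8% in female fat body, and 13.2% and 13.0% in the male fat body libraries. Without the 5 X genes of highest mean TPM (GD24639, GD16970, Yp2, GD28649 and GD27903), the X share was 14.0% in each female oenocyte library and 13.1% and 13.0% in the male ones. In fat body it was then 13.8% and 13.9% in females and 12.3% and 12.0% in males. GD24639 was the oenocyte gene among them. It reached a scaled TPM of 212157 and 226158 in female oenocytes and 246033 and 245627 in male oenocytes. In fat body it was at 3826 and 4296 in females and 5851 and 6757 in males. Both sexes thus had it far higher in oenocytes, and its sex difference was called only in fat body, at -0.63 with an SE of 0.10 (limma, adjusted p = 0.00466, and 0.051 without female fat body library 1). GD16970, Yp2 and GD28649 were female genes instead, each at 12780 scaled TPM or more in every female library and at 90.7 or less in every male library.

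Single X genes were then tested for a difference between the sexes in each tissue with limma, with p-values adjusted over all 7278 genes tested. In oenocytes 123 X genes (10.2%) were higher in females, where 6.66% of all genes tested were higher. Another 36 X genes (2.99%) were lower in females, against 1.90% of all genes. In fat body 204 X genes (16.9%) were higher in females, against 12.3% of all genes, and 176 (14.6%) were lower, against 13.6%. Most differences were moderate: 47 of the 123 and 17 of the 36 passed 2-fold in oenocytes, and 63 of the 204 and 42 of the 176 passed it in fat body.

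These counts rest on few libraries. With the male oenocyte libraries entered separately, 263 X genes were higher and 90 lower in female oenocytes. In oenocytes the higher calls numbered 77 and 70 without female oenocyte library 1 or 2, and the lower calls 15 without library 2. In fat body the higher calls numbered 121 and 131 without female fat body library 1 or 2. The lower calls there numbered 99 and 110 without those libraries, and 116 without male fat body library 2. The fat body split also rests on the scaling: with TPM left unscaled, the median of all genes moved to -0.63 and the X calls became 67 higher and 745 lower, so fat body changes are given relative to the median autosomal gene. With aligned reads per gene, edgeR called 8 higher and 1 lower X genes in oenocytes.

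The 5 genes found of the 13 listed for sex determination included 3 on the X, and only Sxl was expressed enough to be tested. Sxl was higher in females in both tissues. Its scaled TPM was 30.5 and 34.9 in female oenocytes and 4.96 and 5.12 in male oenocytes. In fat body it was 23.3 and 22.4 in females and 6.56 and 7.50 in males. Every female library thus lay well above every male library. The log2 difference was 2.48 with an SE of 0.15 in oenocytes (adjusted p = 0.000135) and 1.57 with an SE of 0.12 in fat body (adjusted p = 0.000155), ratios of 6.48 and 3.25 between the group means. The gene tables sum transcripts, so the sex-specific splice forms for which Sxl is known in D. melanogaster are not separated. The X-linked run was listed at 0 in every library, and sc did not pass 0.10 TPM; in D. melanogaster both act in the early embryo in counting the X.

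Yp2, a yolk protein taken up by the growing egg, was the 1 gene found of the 3 listed yolk genes. It stood at 34898.5 and 36800.3 scaled TPM in female oenocytes and at 52.5 and 62.6 in male oenocytes. Fat body levels were 114830 and 119309 in females and 43.8 and 71.7 in males. The log2 difference was 9.26 with an SE of 0.24 in oenocytes and 11.00 with an SE of 0.20 in fat body (adjusted p = 2.98e-06 and 2.8e-07). Obp99a, also a fat body marker, was higher in females and in fat body too (values above). The part of fat body RNA in the oenocyte levels was not tested. GD16970 and GD28649 were also far higher in females and were the GD-numbered X genes with the largest rise in both tissues. GD16970 rose by 8.47 on the log2 scale in oenocytes and 11.37 in fat body, and GD28649 by 8.10 and 11.32.

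Enzymes of metabolism and pigment synthesis went in both directions. Of the 17 listed genes, 9 were found, 8 of them on the X, and 6 were tested. In oenocytes 2 of the 6 were higher in females and 1 was lower, with a median log2 difference of -0.27 beside 0.05 over all genes tested. In fat body 2 were higher and 4 lower, with a median of -0.69 beside -0.03. The gene r encodes the enzyme that opens pyrimidine synthesis in D. melanogaster. It stood at 8.43 and 6.44 scaled TPM in female oenocytes and 3.38 and 3.30 in male oenocytes, and at 10.3 and 9.78 in female and 3.30 and 2.94 in male fat body. It was higher in females by 1.42 on the log2 scale in fat body (SE 0.16, adjusted p = 0.000921). In oenocytes the difference was 0.95 (SE 0.20, adjusted p = 0.0303), but it missed the threshold when any of 5 libraries was left out, namely female oenocyte library 1 and each fat body library (adjusted p from 0.051 to 0.103).

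The gene v, tryptophan 2,3-dioxygenase of the brown eye pigment pathway, was also higher in females. Its scaled TPM was 48.0 and 43.9 in female and 23.6 and 25.6 in male oenocytes, a log2 difference of 0.88 (SE 0.09, adjusted p = 0.00179). Its fat body levels were 418 and 454 in females and 323 and 324 in males, a difference of 0.43 (SE 0.08, adjusted p = 0.00741), lost without female fat body library 2 (adjusted p = 0.058). That fat body direction held only relative to the autosomes, since unscaled TPM gave -0.27 and aligned reads -0.17.

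Zw and Pgd, glucose-6-phosphate and 6-phosphogluconate dehydrogenase, are the oxidative enzymes of the pentose phosphate pathway, which yields NADPH for fat synthesis. Both fell in female fat body. Zw was at 154 and 150 scaled TPM in female and 342 and 304 in male fat body, a log2 difference of -1.08 (SE 0.07, adjusted p = 0.000102). Pgd was at 437 and 435 in female and 914 and 814 in male fat body, a difference of -0.98 (SE 0.10, adjusted p = 0.000473). The males were thus about 2-fold higher for both, with ratios of 2.13 and 1.98. In oenocytes neither passed the test: Zw stood at 705 and 686 in females and 749 and 747 in males (-0.11, adjusted p = 0.61), and Pgd at 841 and 714 against 1047 and 1035 (-0.43, adjusted p = 0.0817).

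HDAC6, a deacetylase, was lower in females in both tissues, at 26.7 and 23.9 scaled TPM in female and 116 in both male oenocyte libraries (-2.15, SE 0.12, adjusted p = 0.000109) and at 144 and 139 in female and 234 and 200 in male fat body (-0.61, SE 0.10, adjusted p = 0.00478). Of the cytochrome P450 genes with symbols, Cyp4d2 differed by -0.88 in fat body (SE 0.11, adjusted p = 0.00132). Its difference of -0.58 in oenocytes (adjusted p = 0.0408) missed the threshold when any of the 4 female libraries was left out (adjusted p from 0.086 to 0.151). Cyp4d1 differed by -1.34 in fat body (SE 0.14, adjusted p = 0.000718), from 3.98 and 4.46 scaled TPM in females to 12.5 and 11.8 in males. Cyp4g15 differed by -0.77 there (adjusted p = 0.0132), lost without female fat body library 1 or male fat body library 2 (adjusted p of 0.087 and 0.073).

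Genes of immunity, signalling and other roles filled out the named X genes. PGRP-SA, which recognises bacterial cell walls ahead of the Toll pathway in D. melanogaster, was lower in female fat body, at 38.8 and 38.0 scaled TPM against 97.1 and 80.3 in males (-1.18, SE 0.12, adjusted p = 0.000604). In oenocytes its levels of 9.97 and 8.62 in females and 8.87 and 9.32 in males overlapped. AlstR, an allatostatin receptor, was higher in female oenocytes, at 18.3 and 17.0 against 8.28 and 8.60 scaled TPM (0.98, SE 0.10, adjusted p = 0.00144). In fat body its difference of 0.44 (adjusted p = 0.00843) was lost without female fat body library 1 or male fat body library 2 (adjusted p of 0.073 and 0.052), and turned to -0.24 with unscaled TPM. Syx4, a membrane fusion protein of the syntaxin family, was higher in female oenocytes, at 14.5 and 13.6 against 6.07 and 6.22 (1.08, SE 0.16, adjusted p = 0.00667). In fat body it was at 12.7 and 11.8 in females and 9.97 and 11.8 in males (adjusted p = 0.411).

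The ribosomal protein gene sta, the 1 gene found of 16 listed X-linked ribosomal genes, was higher in female fat body at 5355 and 5480 against 2798 and 2837 scaled TPM (0.94, SE 0.06, adjusted p = 8.42e-05). In oenocytes it was at 2020 and 2119 in females and 1671 and 1662 in males, just short of the threshold (0.31, adjusted p = 0.052). Obp18a, of the odorant-binding protein family, was lower in female fat body at 117 and 110 against 198 and 197 (-0.79, SE 0.09, adjusted p = 0.00117). The recombination gene mei-218 was low throughout, between 0.382 and 2.83 scaled TPM, and lower in female fat body (-1.08, SE 0.18, adjusted p = 0.0061). Its oenocyte levels went the other way, at 1.34 and 1.38 in females against 0.662 and 0.382 in males. That difference of 0.64 was not called. Of 7 genes listed under muscle, 2 were found, and the troponin gene up passed in neither tissue (0.54 and 0.39, adjusted p = 0.18 and 0.125). The other, sqh, encodes a non-muscle myosin light chain and does not mark muscle. This gene passed in fat body at 0.42 (adjusted p = 0.0353). It missed the threshold when any of the 4 fat body libraries was left out (adjusted p from 0.079 to 0.154), and the value turned to -0.25 unscaled and -0.10 with aligned reads.

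Over all symbols, 6 of 52 were higher and 2 lower in female oenocytes, where 6.66% and 1.90% of all genes were, and 8 were higher and 12 lower in female fat body, against 12.3% and 13.6%. Other named fat body calls were sws (0.57), Fas2 (-0.76) and Ntf-2 (-0.63), each lost when 1 of 2 or 3 particular fat body libraries was left out. For sws these were female library 1 and male library 2 (adjusted p of 0.094 and 0.075), and the value turned to -0.11 unscaled. For Fas2 they were female library 2 and male library 1 (0.077 and 0.051). For Ntf-2 they were female library 1 and both male libraries (from 0.059 to 0.109). Of GD-numbered X genes, GD24428 (-3.99) and GD28385 (-3.75) fell most in female oenocytes, and GD24689 (-4.41) and GD16941 (-4.16) in female fat body. GD16941 was at 85.0 and 93.1 scaled TPM in female and 1601 and 1620 in male fat body.

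**Figure D3:**
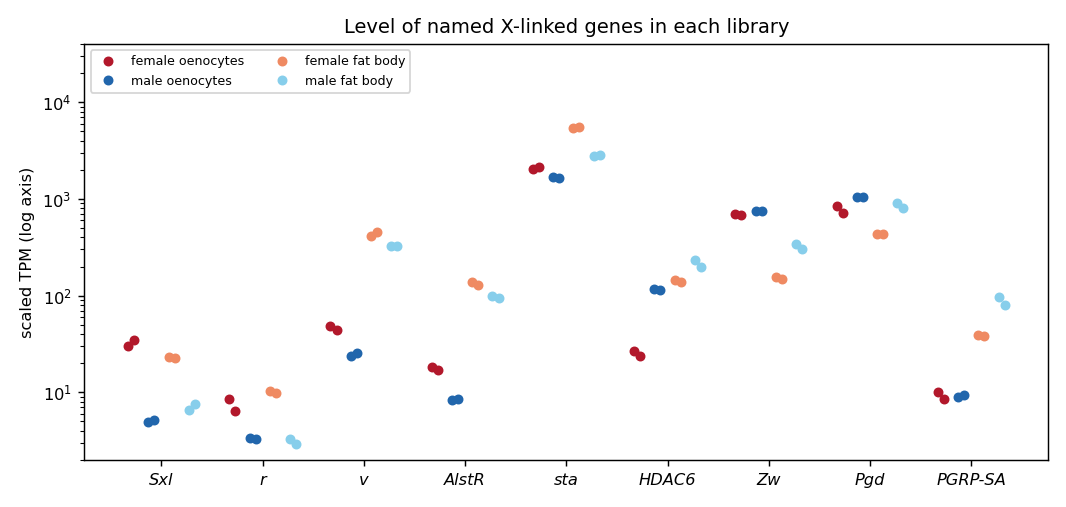
Scaled TPM, on a log axis, of 9 named X-linked genes in each of the 8 libraries, coloured by sex and tissue. Only PGRP-SA overlaps between the sexes, in oenocytes. The oenocyte differences of sta, Zw and Pgd were not called. Zw and PGRP-SA separate clearly in fat body, with females at 154 and 150 against 342 and 304 for Zw.

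The comparison of the tissues asked whether the sex difference of an X gene was the same in oenocytes as in fat body. In all 104 X genes were called in both tissues, which was 65.4% of the 159 oenocyte calls and 27.4% of the 380 fat body calls. Of these, 61 were higher in females in both tissues, 23 were lower in both, and 20 went in opposite directions, 15 of them higher in female oenocytes and lower in female fat body. Over all genes tested the shares were 60.8% and 20.1%, with 214 higher in both tissues, 80 lower in both and 85 opposite. The interaction is the female minus male difference in oenocytes less that in fat body. Over the X, 129 genes had a called positive interaction, where 8.79% of all genes tested did, and 76 a negative one, against 4.75%. That was 205 of 1204 X genes, and 127 and 136 without female fat body library 1 or 2. Unscaled TPM gave 586 positive and 38 negative calls with a median shift of 0.63, and aligned reads gave 0 positive and 2 negative, so the split between directions differs with the scaling and the unit.

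Among named genes, the male excess of HDAC6 was larger in oenocytes, with an interaction of -1.54 (SE 0.16, adjusted p = 0.00158). The reverse held for Zw (0.97, SE 0.12, adjusted p = 0.00262), PGRP-SA (1.20, SE 0.19, adjusted p = 0.00786) and mei-218 (1.72, SE 0.29, adjusted p = 0.0103), whose male excess was called in fat body and not in oenocytes. The female excess of sta was larger in fat body (-0.63, SE 0.10, adjusted p = 0.00655), though unscaled TPM removed it (0.0038). Sxl had an interaction of 0.90 (SE 0.19, adjusted p = 0.0231), and 4 libraries each ended that call when left out: female oenocyte library 2, both female fat body libraries and male fat body library 2 (adjusted p from 0.061 to 0.086). Yp2 had one of -1.74 (adjusted p = 0.013), lost without either female oenocyte library (adjusted p of 0.063 and 0.060).

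Some GD-numbered genes were far higher in 1 sex and tissue than in the other groups. GD27428 was at 41.6 and 48.7 scaled TPM in female oenocytes, with 2.20 and 1.49 in the fat body of females and at most 0.364 in any male library (interaction 4.28, SE 0.30, adjusted p = 0.00052). GD24670 was at 462 and 515 in female oenocytes and between 23.3 and 41.0 elsewhere (3.43, SE 0.14, adjusted p = 4.94e-05). GD27600 and GD27898 were female fat body genes, at 717 and 933 and at 727 and 771 scaled TPM there, with GD27600 at most 0.504 and GD27898 at most 0.212 in any other library. Their fitted interactions, -9.84 and -9.41, depend on the pseudocount because the other groups were at or near 0. GD24428 was instead higher in male than in female oenocytes, with 8.62 and 9.13 in female oenocytes against 151 and 162 in male oenocytes, and fat body levels of 76.0 and 81.0 in females and 61.1 and 74.4 in males that did not pass the test (0.22, adjusted p = 0.204).

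**Figure D4:**
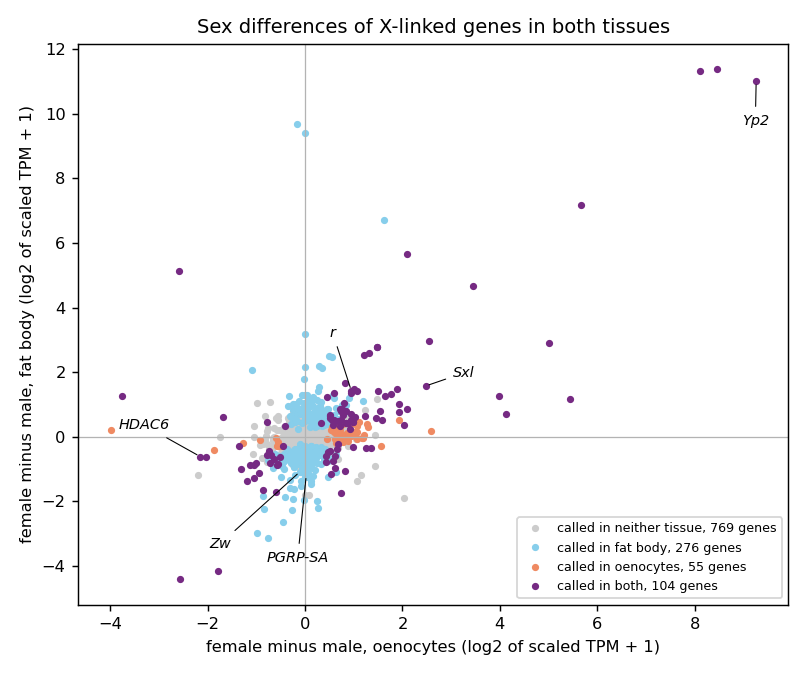
Female minus male difference in log2(scaled TPM + 1) of each tested X gene in oenocytes (horizontal) and fat body (vertical), coloured by where it was called. Of the 104 genes called in both tissues, 61 lie in the upper right, 23 in the lower left and 20 in the other corners.

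The last comparison was of the parental alleles. The deposited tables assign reads to a reference and an alternative allele, and the alternative share is the alternative reads over both. Females carry an X from each parent species, whereas a male has a single X, so alternative reads of X genes in males serve as a background. Over X genes with at least 20 allele reads, the median alternative share was 14.3% and 13.95% in the male oenocyte libraries and 20% and 19.7% in the male fat body libraries. With reads of all X genes pooled it was 17.6% and 17.9% in oenocytes and 24.6% and 22.1% in fat body. The background thus differed between the tissues by more than between replicates, and it reached over 50% for 23 and 36 X genes in the oenocyte libraries and for 38 and 71 in those of fat body. The transcript estimates, which name the species of each copy, showed the same picture: the D. sechellia copy held a median of 17.2% and 17.5% of X genes' counts in male oenocytes, 22.8% and 23.5% in male fat body, and 65.2% to 66.7% in the female libraries.

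In females 405 X genes had at least 20 allele reads in each of the 4 libraries. Their median alternative share was 59.4% and 60.3% in oenocytes and 58.8% and 58.1% in fat body, below the autosomal medians of 62.0%, 63.4%, 62.3% and 62.5% in the same libraries. On the log2 scale of the allelic ratio, X minus autosomes was -0.13 and -0.14 in oenocytes and -0.17 and -0.25 in fat body, negative in 4 of 4 libraries. An exact two-sided sign-flip permutation test gave p = 0.125, the smallest that 4 libraries allow. In these shares, from which no background was removed, most X genes leaned to the alternative allele, as autosomal genes did, and leaned less. The 70 X genes under 5% in males did not lean that way at the median. Their median female share was 45.8% in oenocytes and 45.3% in fat body.

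With edgeR's quasi-likelihood test, 148 of the 405 X genes were called towards the alternative allele in female oenocytes, where 41.1% of the 2234 genes tested were, and 21 towards the reference allele, against 3.45%. In female fat body 102 X genes were called towards the alternative allele, against 35.6% of all genes, and 20 towards the reference allele, against 3.63%. The X shares were 36.5% and 5.19% in oenocytes and 25.2% and 4.94% in fat body. In all 94 X genes were called in both tissues, 82 towards the alternative allele, 11 towards the reference allele and 1 in opposite directions. These were 55.6% of the oenocyte calls and 77.0% of the fat body calls, beside 67.9% and 77.1% over all genes tested. The fat body counts were thin: without female fat body library 1 or 2 they were 48 and 39 towards the alternative and 10 and 4 towards the reference allele, and in oenocytes 12 towards the reference allele without library 2. When ratios were centred on the autosomal median, the X calls became 47 and 56 in oenocytes and 36 and 56 in fat body. Over all 2234 genes tested they became 331 and 270 in oenocytes and 286 and 241 in fat body. Unlike all genes, more X genes were then called towards the reference than towards the alternative allele. The X median lay below the autosomal median used for centring, so such a tilt follows from the medians above.

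Female shares rose along with the male background. Over 404 X genes with enough reads in males as well, those under 5% in males (70 genes) had a median female share of 45.8% in oenocytes and 45.3% in fat body. The medians were 52.7% and 51.9% for 46 genes between 5% and 10%, 57.6% and 56.1% for 95 genes between 10% and 20%, 65.4% and 62.7% for 164 genes between 20% and 50%, and 79.4% and 79.2% for 29 genes at or above 50%. Across these genes, which share libraries and read depth and are not replicates, Pearson's r was 0.66 in oenocytes and 0.64 in fat body. Of the calls towards the alternative allele, 115 of 148 in oenocytes and 81 of 102 in fat body were of genes at or above 20% in males, and only 11 and 7 were of genes under 10%. The calls towards the reference allele were the reverse, with 17 of 21 and 18 of 20 under 10% in males. Over the 404 genes, called or not, the female share was above the male one for 398 in each tissue. How much of the female shares the background makes up was not tested.

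**Figure D5:**
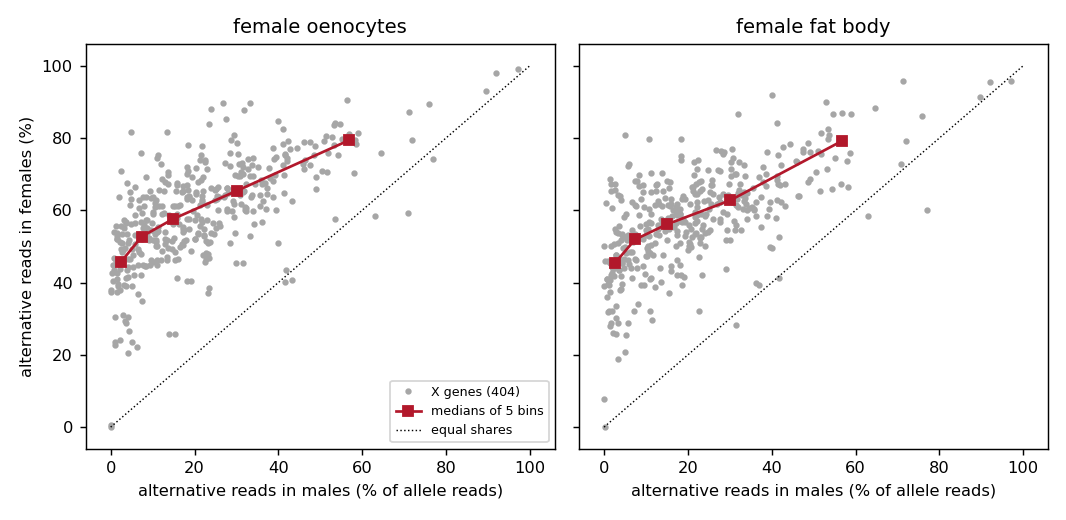
Alternative share of allele reads, in percent, of 404 X genes in females (vertical, mean of 2 libraries) against males (horizontal, all male reads pooled), with squares for the medians of 5 bins of the male share. The medians rise from 45.8% to 79.4% in oenocytes and from 45.3% to 79.2% in fat body, and nearly all genes lie above the dotted line of equal shares.

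The X genes furthest towards the reference allele had few or no alternative reads in either sex. GD16135 had an alternative share of 0.0686% and 0% in female oenocytes, where the 0 of 1112 reads allows a share of up to 0.270%. It had 0.0807% and 0.0703% in the fat body of females, and 0.131% of 7658 male reads. Its log2 ratio was -11.00 in oenocytes and -10.35 in fat body. GD16200 had 0.935% and 0% in female oenocytes (0 of 105 reads, up to 2.86%) and 3.70% and 11.9% in female fat body, with 0 of 520 male reads, which allows up to 0.577%. Its ratios were -7.39 and -3.52. These limits take 3 counts of the reads and cover counting error only. At the other end, GD17450 had 99.9% and 98.0% in female oenocytes and 97.0% and 94.6% in female fat body, but also 97.1% of 1575 male reads. With the male tissues pooled, GD27819 (97.1% and 98.8% in female oenocytes) had 92.0% in males, and GD15826 (96.6% and 95.1% in female fat body) had 71.2%. Male oenocytes gave only 3 and 5 reads for GD27819, and GD15826 was at 26.3% and 15.5% there. In male fat body GD27819 was at 92.4% and 93.7% and GD15826 at 84.1% and 79.4%, although males carry no second X allele. For GD17450 in both tissues and GD27819 in fat body, the male share was thus nearly as high as the female one.

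Among genes with symbols, sta had the lowest male background of those called in both tissues, at 8.33% of 3529 reads. Its alternative share was 67.0% and 71.7% in female oenocytes and 71.7% and 67.7% in female fat body, against 0.669% and 0.837% in the oenocytes of males and 8.67% and 12.2% in their fat body. The log2 ratio was 1.18 and 1.20 (SE 0.17 in each, adjusted p = 0.00084 in each). Zw had 66.4% and 65.9% in female oenocytes and 61.7% and 62.9% in female fat body, with 27.7% in males, and ratios of 0.97 (adjusted p = 0.00084) and 0.73 (adjusted p = 0.00685, and 0.060 without female fat body library 2). Pgd had 65.4% and 66.3% in female oenocytes, with 25.1% in males and a ratio of 0.95 (adjusted p = 0.00197). AlstR had 73.3% and 72.9% in female oenocytes, with 27.3% in males and a ratio of 1.44 (adjusted p = 0.0056). Sxl had 67.0% and 58.1% in female oenocytes (0.77, adjusted p = 0.0632) and 64.2% and 70.4% in female fat body. Its fat body ratio of 1.04 (adjusted p = 0.0356) was lost without either female fat body library (adjusted p of 0.176 and 0.396), and the male background of 43.1% rested on 51 reads. HDAC6 was not called towards either allele, with 45.0% and 64.8% in female oenocytes and 47.6% and 44.7% in female fat body (adjusted p = 0.658 and 0.511). With ratios centred on the autosomal median, sta kept its calls (0.52 and 0.57, adjusted p = 0.0435 and 0.0311). Those of Zw in both tissues (adjusted p = 0.135 and 0.707), Pgd in oenocytes (0.223), AlstR in oenocytes (0.0915) and Sxl in fat body (0.426) were lost, and HDAC6 was called towards the reference allele in fat body (-0.86, adjusted p = 0.0366).

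The allelic ratio of X genes was compared between the female tissues last. It differed for 1 X gene, GD16764, where 0.0895% of all genes tested were called in that direction. Its alternative share was 83.8% and 92.1% in female oenocytes and 48.1% and 52.0% in female fat body, with 18.6% and 24.2% in the oenocytes of males and 22.2% and 26.8% in their fat body. The log2 ratio was higher in oenocytes by 2.96 (SE 0.41, adjusted p = 0.0241). Its total level also changed between tissues in its sex difference, at 236 and 249 scaled TPM in female and 95.6 and 92.4 in male oenocytes but 277 and 311 in female and 367 and 383 in male fat body. At an unadjusted p under 0.05, 32 of the 405 X genes differed, beside 136 of all 2234 genes tested. Adjusted X calls numbered 7 without female oenocyte library 2, and 3 and 4 without female fat body library 1 or 2. Over all genes these were 11, 7 and 15.

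Finally, the reference allele alone was compared between the sexes. A female carries it on 1 of her X chromosomes, and most X reads of males were given to it. That the male X carries it is inferred from these reads, as the labels do not give the mother's species. The median alternative share in males was 14.3% and 13.95% in oenocytes and 20% and 19.7% in fat body, and was not corrected for. The part of this background in the difference between tissues was not tested. Per library pair, reference reads of X genes were higher in males than in females relative to autosomal genes by 0.43 to 0.62 on the log2 scale in oenocytes, a 1.34-fold to 1.54-fold difference over 276 to 406 genes. In fat body they were higher by 0.67 to 0.97, or 1.59-fold to 1.96-fold, over 256 to 311 genes. All 8 library pairs had the same direction, and the tissues did not overlap. With reads of both alleles summed, the same measure was -0.35 to -0.23 in oenocytes, with males below females in all 4 pairs, and -0.18 to 0.16 in fat body, with both directions present. The pairs share libraries and are not independent, so no test was made.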

How the data were processed

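Per the file headers, the authors deposited kallisto estimated counts and TPM per transcript and TPM per gene, and per library a table of whole-number counts of reads assigned to the reference or alternative allele, with a log2 allelic value that was not used. The submitters' processing notes name STAR 2.5.1b and kallisto 0.44.0, with no role or order. The genome builds, the index, strand handling and read filters are not given in the sources used here, so overlapping genes cannot be told apart.

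From these values, TPM were scaled to the autosomal median, log2(scaled TPM + 1) was fitted with limma 3.58.1 (R 4.3.3, 1 term per group, trended variance, 7 samples, 3 residual degrees of freedom) for genes with a mean of at least 1 TPM, and allele counts of the 4 female libraries were fitted with edgeR 4.0.16 for genes with at least 20 allele reads in each. Benjamini-Hochberg adjusted p under 0.05, over all genes tested, made a call. A fold change on this log2 scale understates that of low genes. The scripts were tested on simulated data with known changes. For the sex test in oenocytes, limma recovered 51% of log2 changes of 1 and 91% of those of 2, with 11 false calls. The edgeR allele test in female oenocytes recovered 71% and 99%, with 7 false calls. In single-value comparisons exact permutation tests were used. Samples were grouped by their titles. Replicate numbers were not used to pair the samples. Deviations of same-numbered libraries correlated at -0.035 to 0.208 over 6 pairs of groups, above 0.1 in 2 of them. With 2 libraries per group this cannot exclude a pairing.

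The X genes, the gene lists and the tests were chosen with earlier results of these data known. Genes were named by a rule: up to 10 called symbols per direction, 2 GD-numbered genes per direction, HDAC6, Yp2, and the 5 X genes of highest TPM. For alleles, those furthest from an equal ratio were named. The authors' counts were also fitted directly, with estimated counts rounded, in edgeR and DESeq2 1.42.0 as alternatives, beside other pseudocounts, filters, scalings and left-out libraries.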

Additional observations from a re-analysis of the deposited data

Results flagged for a closer look

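X-linked genes whose sex difference differed between oenocytes and fat body by the interaction test (limma, adjusted over all genes tested) numbered 205. Positive values mean a larger female minus male difference in oenocytes. Among genes with symbols the interaction was 0.54 for AlstR, 1.02 for Cyp4d1, 0.59 for Obp18a, 1.20 for PGRP-SA, 0.90 for Sxl, 0.92 for Syx4, 0.97 for Zw, 0.61 for lic and 1.72 for mei-218. It was -1.54 for HDAC6, -1.74 for Yp2 and -0.63 for sta. The values for AlstR, Cyp4d1, Obp18a, Sxl, Syx4, Yp2 and lic each lost the call when particular single libraries were left out, with adjusted p up to 0.141.

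Among genes with GD numbers the interaction was 2.37 for GD16941, 3.43 for GD24670, 1.84 for GD24689 and 4.28 for GD27428. It was -2.90 for GD16970, -4.21 for GD24428, -9.84 for GD27600, -9.41 for GD27898, -1.09 for GD27903, -5.02 for GD28385 and -3.21 for GD28649. The allelic ratio of GD16764 differed between female oenocytes and fat body by 2.96 on the log2 scale in edgeR's test of that difference. The causes of these differences were not tested.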

How the results depend on the processing

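No count of sex-biased X genes kept its size under every alternative. With the male oenocyte libraries entered separately, X genes in oenocytes numbered 263 higher and 90 lower and the interaction 330. A replicate block added to that fit gave 279, 93 and 347, though the numbers are not known to pair the samples. In the allele fit, adding the replicate block removed the call of sws in oenocytes (adjusted p = 0.056) and of no other named gene. edgeR on estimated counts gave 42 higher and 8 lower in oenocytes, 68 and 50 in fat body and 48 interactions. DESeq2 gave 122 and 91 in fat body and 113 interactions. edgeR on aligned reads gave 8 and 1 in oenocytes, 14 and 8 in fat body and 2 interactions, and lost 66 of 85 single calls it could measure. Unscaled TPM gave 67 and 745 in fat body and 624 interactions. Leaving out 1 library gave 70 to 128 higher and 15 to 38 lower in oenocytes, 121 to 205 and 99 to 176 in fat body, and 127 to 206 interactions.

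The X minus autosome difference in oenocytes was 0.15 with 8 libraries, 0.030 without the filter, 0.27 with aligned reads and 0.15 to 0.17 with 1 library left out. In fat body it was 0.011 without the filter, 0.085 at 5 TPM or more, 0.039 against 3L alone, 0.0016 with aligned reads and 0.047 to 0.089 with 1 library left out. Taken as the index, it stayed positive in all of these. The edgeR fit of aligned reads went the other way in fat body. Its median female minus male difference was -0.135 for X genes and -0.058 for autosomal genes.

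Calls towards the alternative and reference allele in oenocytes numbered 90 and 13 at 50 reads or more and 47 and 56 after centring, with 11 alternative calls under 10% in males and 11 reference calls by DESeq2. In fat body they numbered 36 and 56 after centring, with 7 alternative calls under 10% in males and 13 reference calls by DESeq2. With 1 library left out they ranged from 128 to 146 and 12 to 20 in oenocytes and from 39 to 143 and 4 to 27 in fat body. X minus autosomes of the log2 allelic ratio was -0.13 at 50 reads and -0.12 at 10 reads in oenocytes and -0.13 at 50 reads in fat body. It was -0.83 and -0.76 over X genes under 10% in males, a filter that itself picks low female shares, and -0.16 to -0.13 and -0.23 to -0.19 with 1 library left out. The pooled male share was 17.8% in oenocytes and 23.3% in fat body, and the median 13.95% to 14.29% and 19.71% to 20% with 1 library left out. Tissue differences numbered 3 at 50 reads, 0 under 10% in males, 3 by DESeq2 and 1 to 7 with 1 library left out.

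Directions reversed for AlstR (-0.24), GD24428 (-0.47), Syx4 (-0.48), sqh (-0.25), sws (-0.11) and v (-0.27) in fat body and for the interaction of sta (0.0038) with unscaled TPM, and with aligned reads for sqh (-0.097) and v (-0.17) in fat body and the interaction of GD15826 (0.11). Centring reversed the allelic ratios of GD24639 (-0.43 in oenocytes, -0.45 in fat body) and GD28649 (-0.17, -0.14), of GD16970 (-0.47) and Pgd (-0.029) in fat body, and of sws (-0.0086) in oenocytes. Unscaled TPM shifts all fat body genes together and centring shifts all ratios together; for the others the cause was not tested.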
